A study of Mus musculus with 7 samples.

Results

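The suppressors of cytokine signalling (SOCS) are a family of 8 genes in the mouse, Cish and Socs1 to Socs7. They were represented by 24 of the 45037 probe sets of the deposited table, counting every probe set annotated to 1 gene symbol that is a member. A probe set is a group of short probes on the array that report 1 transcript together. Socs2 had 6 probe sets, Socs4 and Socs7 had 4 each, Socs3 and Socs6 had 3 each, Socs5 had 2, and Cish and Socs1 had 1 each.

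RNA was measured on 7 Affymetrix arrays of leukemic cells from C57Bl/6 mice in the terminal stage of T-cell leukemia. The 4 TEL-JAK2 arrays held cells from leukemic thymus, and TEL-JAK2 is a fusion of the transcription factor TEL with the kinase JAK2 that keeps the kinase active. The 3 ICN1 arrays held cells from leukemic bone marrow, and ICN1 is the intracellular part of the receptor NOTCH1, which is active without ligand. The sources used here do not give ages, the promoter or vector behind each oncogene, or whether each array came from a separate animal, so the p-values reflect array-to-array spread, which may be technical. Each genotype came from 1 tissue, and genotype and tissue therefore cannot be told apart in any comparison below.

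Cytokine receptors activate Janus kinases, which phosphorylate the receptor and the STAT transcription factors, and STATs switch on the genes of their own inhibitors. SOCS proteins are such feedback inhibitors. Each has an SH2 domain that binds phosphorylated tyrosines and a SOCS box that recruits elongins and the scaffold Cullin 5 for ubiquitination of the bound protein. SOCS1 and SOCS3 also carry a kinase inhibitory region that blocks Janus kinases directly. In T cells, CIS, SOCS1 and SOCS3 are best known for limiting the signals of interleukins and interferons.

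The median log2 value of an array was 5.44 to 5.50. Over all probe sets, Pearson's r was 0.975 to 0.989 within TEL-JAK2, 0.973 to 0.982 within ICN1 and 0.921 to 0.944 between the groups. The marker counts here are of genes with a limma adjusted p under 0.05, the rule given below. By it, 11.9% of all genes were higher in TEL-JAK2 and 12.2% lower. The T-cell gene Cd3d averaged 13.71 in TEL-JAK2 and 13.20 in ICN1, and 6 of 10 T-cell markers were higher in TEL-JAK2 and 1 lower. The mean level of 11 erythroid markers was 5.99 to 6.30 in TEL-JAK2 and 11.12 to 11.37 in ICN1, with 9 members lower in TEL-JAK2. The brightest erythroid marker, Tfrc, averaged 11.58 in TEL-JAK2 and 13.25 in ICN1. Monocyte and macrophage markers (6 of 12 lower) had list means of 6.27 to 8.48 in TEL-JAK2 and 8.81 to 10.13 in ICN1. Granulocyte markers (5 of 14 lower) had list means of 5.05 to 5.40 in TEL-JAK2 and 5.79 to 7.19 in ICN1, and megakaryocyte markers (4 of 5 lower) 5.63 to 5.84 in TEL-JAK2 and 6.89 to 8.58 in ICN1. Thymic epithelial markers (3 of 11 higher) had list means of 5.82 to 6.27 in TEL-JAK2 and 5.11 to 5.30 in ICN1. Of these 3, Epcam averaged 10.92 in TEL-JAK2 and 4.78 in ICN1, but Aire differed by only 0.87 log2 and Foxn1 by 0.33. The other 8 were not called. Genes of the B-lineage list were higher for 2 of 11, Vpreb1 (difference 2.28 log2) and Rag1 (1.69), and the other 9 were not called. Rag1 is not specific to B cells. Class II and dendritic cell markers were called for 0 of 9, but their median difference was 1.11 log2. Their list means were 7.74 to 9.28 in TEL-JAK2 and 6.41 to 8.19 in ICN1. Stromal markers were lower for 1 of 11, with list means of 5.35 to 7.14 in TEL-JAK2 and 5.84 to 7.08 in ICN1. Tfrc, S100a9, Lyz2, Itga2b, Epcam, Ighm, H2-Aa and Pecam1 were the brightest markers of these lists. ICN1 replicates 1 and 2 stood apart in holding Xist (11.51 and 11.78) together with the Y-linked gene Eif2s3y (8.93 and 9.41). The differences of the SOCS genes and of several named genes are therefore also given without both of these arrays. That setting leaves 1 ICN1 array and so holds no ICN1 spread. Its differences are given below without p-values. TEL-JAK2 replicate 4 also stood apart in its group, with Xist at 5.19 and Eif2s3y at 10.23, against 13.12 to 13.36 and 3.18 to 3.29 in TEL-JAK2 replicates 1 to 3. Its mean over the stromal and endothelial markers was 7.14, against 5.35 to 5.38 in those 3 arrays. SOCS genes are used by many of these cell types, and the part of the cell mixture in the SOCS differences was not tested. In bulk RNA, fewer cells of a type and less RNA per cell cannot be told apart.

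The comparison asked how the SOCS genes differed between the 2 leukemias. Cish, Socs1, Socs2 and Socs3 were 9.28-fold to 48.8-fold higher in TEL-JAK2, and no array of one group reached the range of the other. Socs4, Socs5, Socs6 and Socs7 were not called. For each gene the brightest probe set on average was used, and a gene was called when its adjusted p in limma, over all 18193 genes, was under 0.05. By this rule 4 of 8 SOCS genes (50%) were called higher and 0 lower, against 11.9% higher and 12.2% lower among all genes. At an unadjusted limma p under 0.05, 1 further member, Socs5, was lower. Either direction together, 24.1% of all genes were called. The groups did not overlap for 5 of 8 members, 4 above and 1 below, beside 34.3% of all genes. The median difference of the 8 genes was 1.59 on the log2 scale, beside 0.04 for all genes. No member lies near that median, since the called and the uncalled genes are far apart. Centring each array on its CD3 genes shifted every difference by -0.62. It kept Cish, Socs1, Socs2 and Socs3 higher (2.59 to 4.99) and placed the other 4 members among the genes called lower (-1.55 to -0.65). With that scaling 62.7% of all genes were called lower and 4.33% higher. A lower call or a change to a negative sign under it is therefore no result about a gene or list.

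**Figure D1:**
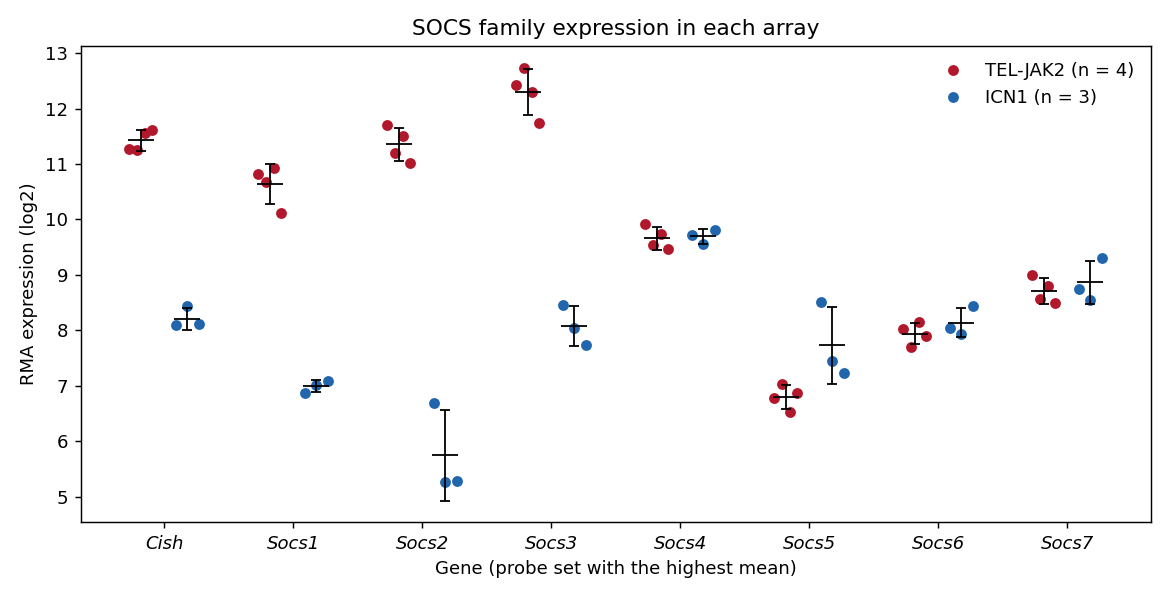
RMA expression (log2, vertical axis) of the 8 SOCS genes in each of the 4 TEL-JAK2 arrays and 3 ICN1 arrays. Each point is an array, and the horizontal line and bars give the mean and SD. For Cish, Socs1, Socs2 and Socs3 all TEL-JAK2 points lie above all ICN1 points, while for Socs4, Socs6 and Socs7 the points overlap.

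Cish encodes CIS, the founding member of the family, which binds phosphorylated cytokine receptors where STAT5 would dock and whose gene is itself a STAT5 target. It read 11.27, 11.26, 11.56 and 11.61 (log2) in TEL-JAK2 replicates 1 to 4, against 8.09, 8.44 and 8.11 in ICN1 replicates 1 to 3. The arrays of each group lay within 0.35 log2 of each other, and 2.82 log2 separated the lowest TEL-JAK2 array from the highest ICN1 array. The difference was 3.21 ± 0.14 (SE, log2; 95% interval 2.88 to 3.55; limma adjusted p = 1.48e-05), a 9.28-fold higher level. It was 3.32 without ICN1 replicates 1 and 2.

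Socs1 encodes an inhibitor that blocks JAK1, JAK2 and TYK2 directly and restrains interferon-gamma and interleukin signals in T cells. It read 10.81, 10.67, 10.93 and 10.12 in the TEL-JAK2 arrays, against 6.87, 7.02 and 7.08 in the ICN1 arrays. ICN1 arrays were tightly grouped, with a range of 0.20 log2, and TEL-JAK2 replicate 4 was the lowest of its group. The difference was 3.64 ± 0.20 (SE, log2; limma adjusted p = 4.00e-05), or 12.5-fold, and the gap between the groups was 3.04 log2. Without ICN1 replicates 1 and 2 the difference was 3.56.

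Socs2, an inhibitor best known for limiting growth hormone signalling, differed most within the family. Its probe set with the highest mean read 11.70, 11.21, 11.51 and 11.02 in the TEL-JAK2 arrays, against 6.69, 5.27 and 5.28 in the ICN1 arrays. ICN1 replicate 1 was 1.42 above the mean of the other ICN1 arrays, which lay below their array medians, yet it remained 4.33 log2 under the lowest TEL-JAK2 array. The difference was 5.61 ± 0.37 (SE, log2; limma adjusted p = 0.000101), or 48.8-fold. Without ICN1 replicates 1 and 2 the difference was 6.08.

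Socs3 encodes the inhibitor that docks on gp130 and on related receptors and blocks the Janus kinases bound there. It read 12.42, 12.74, 12.30 and 11.74 in the TEL-JAK2 arrays, against 8.46, 8.05 and 7.73 in the ICN1 arrays. The groups were 3.28 log2 apart at their nearest, although the range within TEL-JAK2, 1.0 log2, was the widest of the 8 genes in that group. The difference was 4.22 ± 0.26 (SE, log2; limma adjusted p = 7.80e-05), or 18.7-fold. It was 4.57 without ICN1 replicates 1 and 2.

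Among all 18193 genes ordered by their difference from most higher in TEL-JAK2, Socs2 stood at rank 13, Socs3 at 48, Socs1 at 81 and Cish at 117. Socs4 stood at 10910, Socs7 at 13058, Socs6 at 13489 and Socs5 at 16734. The family was thus split between the upper tail of the distribution and its centre and lower side.

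**Figure D2:**
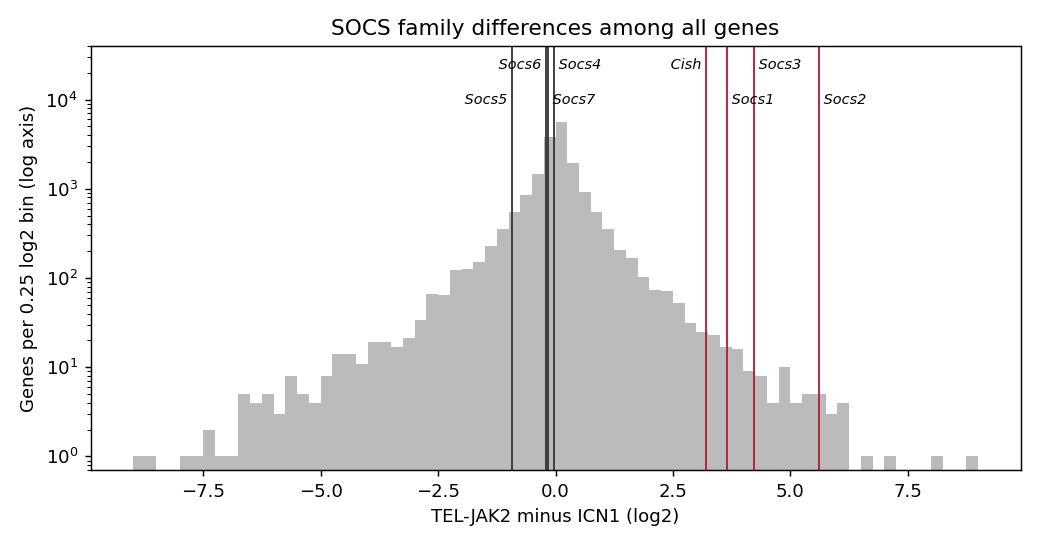
Number of genes (vertical axis, log scale) in each bin of the difference TEL-JAK2 minus ICN1 (log2, horizontal axis) for all 18193 genes, with a line at each SOCS gene. Cish, Socs1, Socs3 and Socs2 lie at 3.21, 3.64, 4.22 and 5.61 in the sparse upper tail, and Socs4, Socs6 and Socs7 lie between -0.19 and -0.03 near the peak.

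Socs4 and Socs5 encode a pair of larger family members known for acting on the epidermal growth factor receptor. Socs4 read 9.92, 9.53, 9.74 and 9.46 in the TEL-JAK2 arrays, against 9.72, 9.55 and 9.81 in the ICN1 arrays, and the ranges overlapped. Its difference was -0.03 ± 0.14 (SE, log2; 95% interval -0.35 to 0.29; limma adjusted p = 0.904). Its interval does not reach the differences of Cish or Socs1. The Socs4 difference was -0.15 without ICN1 replicates 1 and 2.

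Socs5 read 6.78, 7.04, 6.53 and 6.87 in the TEL-JAK2 arrays, against 8.51, 7.44 and 7.22 in the ICN1 arrays. The groups did not overlap, with TEL-JAK2 lower, but the gap was 0.19 log2, and ICN1 replicate 1 stood 1.18 above the mean of the other ICN1 arrays. Groups with TEL-JAK2 wholly below ICN1 were found in 15.9% of all genes. The difference of -0.92 ± 0.30 (SE, log2; 95% interval -1.64 to -0.21) was not called (limma adjusted p = 0.0674). It was called without ICN1 replicate 3 (-1.17, limma adjusted p = 0.0397), and it was -0.42 without ICN1 replicates 1 and 2.

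Socs6 and Socs7 encode the members known for binding insulin receptor substrates, and SOCS6 also binds the receptor KIT. Socs6 read 8.02, 7.70, 8.15 and 7.89 in the TEL-JAK2 arrays, against 8.05, 7.93 and 8.43 in the ICN1 arrays. Socs7 read 9.0, 8.56, 8.79 and 8.49 in the TEL-JAK2 arrays, against 8.74, 8.55 and 9.30 in the ICN1 arrays. In both genes the ranges overlapped and ICN1 replicate 3 was the highest of its group. The differences were -0.19 ± 0.16 for Socs6 (95% interval -0.57 to 0.18; limma adjusted p = 0.442) and -0.16 ± 0.21 for Socs7 (95% interval -0.64 to 0.33; limma adjusted p = 0.641), both in log2 with SE. They were -0.49 for Socs6 and -0.59 for Socs7 without ICN1 replicates 1 and 2, further from 0.

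The further probe sets allowed each gene's reading to be set beside another one of the same transcript. Of all 24 probe sets, 10 (41.7%) were called higher and 0 lower when every probe set was fitted and adjusted over all 45037, beside 9.26% higher and 10.3% lower in the whole table. Either direction together, 19.6% of all probe sets were called. At an unadjusted limma p under 0.05, 1 further probe set, 1423349_at of Socs5, was lower. The 10 belonged to Cish, Socs1, Socs2 and Socs3, and none of the 13 probe sets of Socs4 to Socs7 was called by limma. All 10 had TEL-JAK2 arrays wholly above ICN1 arrays, beside 16.2% of all probe sets. Counting Socs5, 11 of 24 did not overlap, beside 30.7% of all probe sets.

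All 3 Socs3 probe sets were called, with differences of 3.98 to 4.57 log2. The probe set 1416576_at read 11.38, 11.79, 11.51 and 10.79 in the TEL-JAK2 arrays, against 7.06, 6.53 and 6.81 in the ICN1 arrays. Unlike the other 2 Socs3 probe sets, its name has no suffix for possible cross-hybridization, and its difference was 4.57 ± 0.24 (SE, log2; limma adjusted p over all probe sets 3.94e-05).

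The Socs2 probe sets disagreed in size. The probe set 1418507_s_at read 10.84, 10.25, 10.33 and 9.92 in the TEL-JAK2 arrays, against 5.18, 4.01 and 4.25 in the ICN1 arrays, a difference of 5.86 ± 0.32 (SE, log2). Smaller differences were found for 1446085_at (3.04 ± 0.27), 1438470_at (1.98 ± 0.39) and 1442586_at (1.78 ± 0.17), whose ICN1 arrays read 3.32 to 5.15. The called probe set with the largest adjusted p, 1438470_at (limma adjusted p = 0.0119), read 6.30, 4.84, 5.96 and 4.75 in the TEL-JAK2 arrays, against 3.58, 3.55 and 3.32 in the ICN1 arrays. It lost its call in 4 of 19 alternatives to the main processing. The 1 probe set not called, 1441476_at, read 3.59 to 3.78 in TEL-JAK2 and 3.54 to 3.75 in ICN1 (difference 0.07 ± 0.10, limma adjusted p = 0.655). It lay far under the array medians in both groups.

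Of the uncalled genes, the further Socs5 probe set read 6.66, 6.46, 5.84 and 5.69 in TEL-JAK2, against 8.16, 6.57 and 6.17 in ICN1. As on its other probe set, ICN1 replicate 1 was the highest array, here 1.79 above the mean of the other ICN1 arrays, and the difference was -0.81 ± 0.48 (SE, log2; limma adjusted p = 0.302). The differences of the 4 Socs4 probe sets lay between -0.21 and 0.07, those of the 3 Socs6 probe sets between -0.44 and 0.05, and those of the 4 Socs7 probe sets between -0.18 and 0.24.

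**Figure D3:**
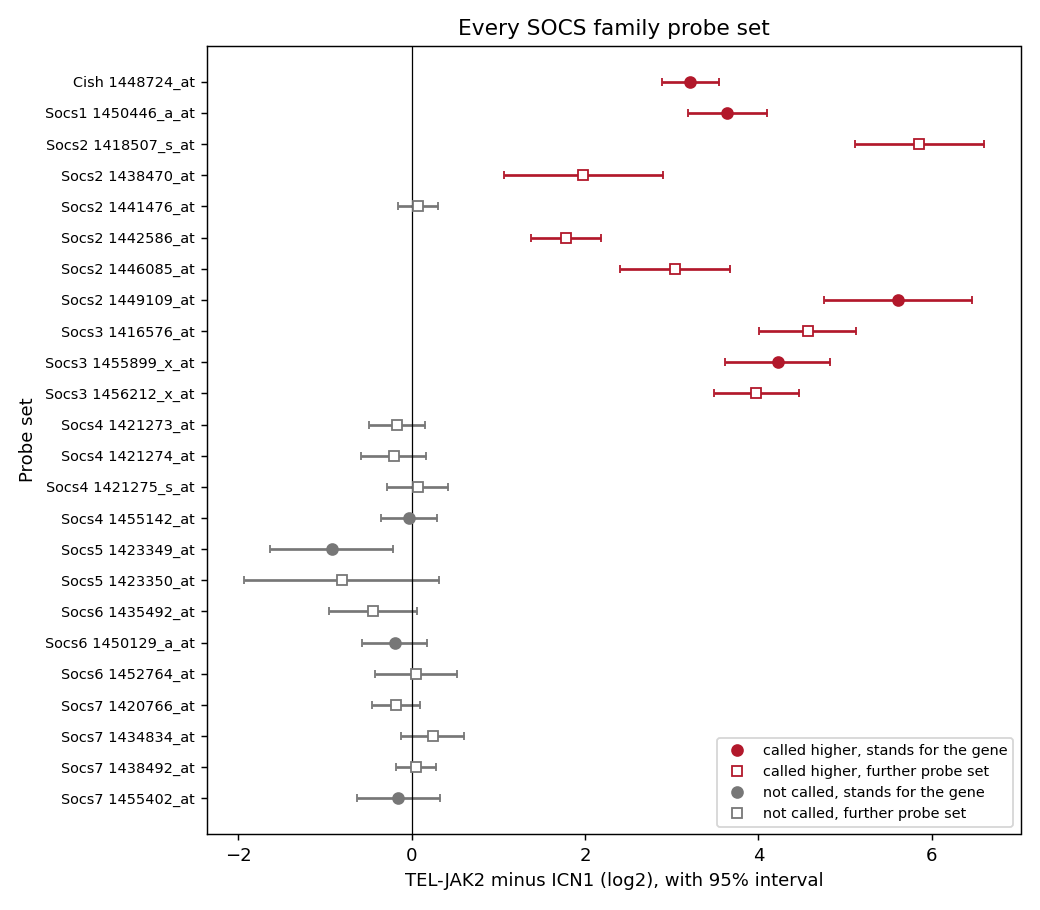
Difference TEL-JAK2 minus ICN1 (log2, horizontal axis) with its 95% interval for each of the 24 SOCS probe sets. Filled circles stand for the gene, open squares are further probe sets, and red marks those called higher. The 10 called probe sets lie between 1.78 and 5.86, and the 14 others lie between -0.92 and 0.24.

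Within TEL-JAK2 the called genes did not follow 1 order of arrays. Replicate 4 was the lowest TEL-JAK2 array for Socs1, Socs2 and Socs3 and the highest for Cish. Over the 10 called probe sets, replicate 4 was lowest in 7 and replicate 2 in 3. Within ICN1, replicate 1 was highest in 8 of these 10, which were the 5 called Socs2 probe sets and the 3 Socs3 probe sets. It was the lowest ICN1 array for Cish and Socs1. By gene it was thus highest for 2 of the 4 called genes and lowest for the other 2. These orders have no test, since each group holds 4 or fewer arrays. Replicate 4 is also the TEL-JAK2 array that stood apart in Xist, Eif2s3y and the stromal markers, and the part of this in the order was not tested. Without it the differences were 3.15 for Cish, 3.81 for Socs1, 5.72 for Socs2 and 4.41 for Socs3, all called by limma.

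Promoter sequence was available in the RefSeq table used here for Cish, Socs1, Socs3 and Socs4. The 250 bases upstream of the annotated start in assembly GRCm38.p6 are shown for the 3 called genes, because these were higher together in TEL-JAK2 and because STAT and interferon-regulated factors are known to act at such promoters. Socs3 lies on the minus strand of chromosome 11 (chr11:117969367-117969616), Socs1 on the minus strand of chromosome 16 (chr16:10785537-10785786) and Cish on the plus strand of chromosome 9 (chr9:107296409-107296658). Capitals mark matches to TTCNNNGAA, the core recognised by STAT5 and most other STATs, in Socs3, and to GAAANNGAAA, a core of interferon-regulatory factor sites, in Socs1.
Socs3: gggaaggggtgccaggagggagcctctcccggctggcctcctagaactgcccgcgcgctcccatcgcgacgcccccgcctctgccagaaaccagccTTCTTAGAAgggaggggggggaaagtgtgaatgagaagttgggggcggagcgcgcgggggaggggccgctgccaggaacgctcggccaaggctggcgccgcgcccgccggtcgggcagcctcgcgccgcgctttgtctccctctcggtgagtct
Socs1: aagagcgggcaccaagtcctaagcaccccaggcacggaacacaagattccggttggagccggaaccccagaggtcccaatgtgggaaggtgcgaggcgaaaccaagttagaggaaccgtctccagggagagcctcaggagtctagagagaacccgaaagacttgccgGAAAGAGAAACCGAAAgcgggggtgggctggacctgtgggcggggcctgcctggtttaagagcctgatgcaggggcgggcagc
Cish: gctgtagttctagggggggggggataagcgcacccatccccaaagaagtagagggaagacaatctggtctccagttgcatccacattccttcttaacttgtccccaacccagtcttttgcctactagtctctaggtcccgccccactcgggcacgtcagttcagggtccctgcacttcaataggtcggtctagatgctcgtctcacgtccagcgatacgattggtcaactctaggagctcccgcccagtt
The Socs3 window held 1 match to TTCNNNGAA, which reads the same on both strands, at 154 to 146 bases upstream of the start. Windows of Socs1, Cish and Socs4 held 0. Of all 32851 promoter windows of this length, 7.02% held at least 1 match. The motif GAAANNGAAA was searched on both strands after the Socs1 sequence had been seen. Socs1 held 2 overlapping matches to it, at 83 to 74 and 77 to 68 bases upstream, beside 2.98% of all windows with at least 1. No window of these genes held both motifs, so an overlap of the 2 motifs could not occur. A match describes the letters only, and sites beyond this window were not searched.

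The kinases and factors upstream of SOCS expression were also compared. Of 4 Janus kinases, Jak1, Jak3 and Tyk2 (75.0%) were higher in TEL-JAK2 (list median 0.81), beside 11.9% of all genes. With each array centred on its CD3 genes only Jak3 was called, and Jak2 changed sign by the shift. Jak3, the kinase of common gamma chain receptors, read 8.19, 8.96, 8.07 and 8.29 in TEL-JAK2, against 7.40, 6.85 and 6.44 in ICN1 (1.48 ± 0.28 SE, limma adjusted p = 0.00933). Jak1 differed by 0.91 ± 0.20 (SE, log2), and its other 2 probe sets were called as well (1.14 and 0.85). Tyk2 differed by 0.70 ± 0.12, but its other probe set was not called (0.04 ± 0.11) and the mean of its probe sets was 0.37. The Tyk2 difference was 0.54 without ICN1 replicates 1 and 2. Jak2 itself read 9.72, 9.81, 9.95 and 9.72 in TEL-JAK2, against 9.92, 9.09 and 8.83 in ICN1. These ranges overlapped because of ICN1 replicate 1, and the difference of 0.52 ± 0.25 was not called (limma adjusted p = 0.179). It was called without ICN1 replicate 1 (limma adjusted p = 0.00816), and it was 0.98 without ICN1 replicates 1 and 2. The other Jak2 probe set was called (1.34 ± 0.25). No source used here says whether they also read the fusion.

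Of 6 STAT factors analysed, 5 (83.3%) were higher in TEL-JAK2 (list median 0.72), beside 11.9% of all genes. With CD3 centring, however, only Stat4 was called, and Stat5a, Stat5b and Stat6 changed sign by the shift. Without ICN1 replicates 1 and 2 the differences were 0.78 for Stat2, 4.80 for Stat4 and 1.08 for Stat3. They were 0.50 for Stat5a and 0.30 for Stat6 there, and Stat5b changed sign (-0.33). Stat4, which carries interleukin-12 signals, read 9.51, 10.38, 10.69 and 9.99 in TEL-JAK2, against 6.52, 6.80 and 5.34 in ICN1, with no overlap. It differed by 3.92 ± 0.40 (SE, log2; limma adjusted p = 0.000756). Stat2, a partner in type I interferon signalling, differed by 1.05 ± 0.13, and Stat3, the main STAT behind Socs3 induction, by 0.90 ± 0.17. Of the other Stat3 probe sets 1 was called (0.85 ± 0.16) and 2 were not (0.25 ± 0.09 and 0.05 ± 0.15), and the mean of all 4 was 0.51. Stat5a and Stat5b, the STATs of interleukin-2 and interleukin-7 and of Cish and Socs2 induction, differed by 0.54 ± 0.11 (called) and 0.15 ± 0.21 (not called, limma adjusted p = 0.657). The other Stat5a probe set was not called (0.40 ± 0.13). Stat6 differed by 0.51 ± 0.15 and lost its call without TEL-JAK2 replicates 1, 2 or 3 or ICN1 replicates 1 or 2 (limma adjusted p 0.0990 to 0.134). Its other probe set was not called (-0.06 ± 0.17).

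Of all genes, 11.9% were called higher and 12.2% lower, or 4.33% and 62.7% with CD3 centring. Of 22 cytokine receptor genes, 9 (40.9%) were higher and 2 (9.09%) lower in TEL-JAK2, with a list median of 0.40. After CD3 centring, 7 of them were higher and 7 lower. The interleukin-21 receptor gene Il21r read 9.37, 9.21, 9.69 and 8.95 in TEL-JAK2, against 6.77, 6.35 and 6.76 in ICN1 (2.68 ± 0.19 SE, log2). Ifnar1, a chain of the type I interferon receptor, differed by 1.30 ± 0.10. Il2rb, the interleukin-2 receptor beta chain, was higher by 3.15 ± 0.84 but was called only just (limma adjusted p = 0.0328). It lost its call without TEL-JAK2 replicates 1, 2 or 4 or ICN1 replicates 2 or 3 (limma adjusted p 0.0554 to 0.107). Without ICN1 replicates 1 and 2 the Il2rb difference was 3.87. Epor, the erythropoietin receptor gene and an erythroid marker, read 5.85 to 6.20 in TEL-JAK2 and 9.63 to 9.94 in ICN1 (-3.74 ± 0.12). Il6st, the gene of gp130, to which SOCS3 binds, was lower (-0.90 ± 0.21) and lost its call without TEL-JAK2 replicates 1 or 2 (limma adjusted p 0.0512 to 0.0540). Of its other probe sets 1 was called (-1.0 ± 0.27) and 2 were not (-0.22 and -0.38). Il2ra, also a STAT5 target, was the uncalled receptor gene with the highest mean (0.51 ± 0.49).

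Of 18 cytokine genes, 1 (5.56%) was called, beside 24.1% of all genes. It was Osm, itself a STAT5 target, which was higher in TEL-JAK2 (1.5 ± 0.22 SE, log2; limma adjusted p = 0.00286). The uncalled cytokine gene with the highest mean was Gh (0.05 ± 0.11), and the list median was 0.02. The list mean was 4.37 to 5.05 in TEL-JAK2 arrays and 4.32 to 4.47 in ICN1 arrays. These levels lie under the array medians, which limits what the low share called can show. Ifng, not called (2.69 ± 1.60), read 3.70, 10.24, 3.71 and 7.98 in TEL-JAK2, against 3.98, 3.43 and 3.74 in ICN1. With CD3 centring Gh changed sign. Osm remained the only cytokine gene called higher there, and it differed by 1.26 without ICN1 replicates 1 and 2. Of 14 other STAT5 target genes, 4 were higher, 2 lower and 8 not called, with a list median of 0.42. Over all arrays, 28.6% of this list were called higher and 14.3% lower, beside 11.9% and 12.2% of all genes. The higher members were the survival gene Bcl2 (5.27 ± 0.26), the cyclin gene Ccnd2 (3.93 ± 0.71), Tnfrsf13b (1.52 ± 0.26) and Osm. The lower members were Id1, which blocks helix-loop-helix factors (-2.26 ± 0.50), and Ezh2, a histone methyltransferase (-0.72 ± 0.14). Id1 lost its call without ICN1 replicate 2 (limma adjusted p = 0.0581). The Ezh2 difference was -0.78 without ICN1 replicates 1 and 2.

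SOCS proteins share their SOCS box with other proteins, and the box works through a common ubiquitin ligase. Of 9 genes for subunits and partners of that ligase, 0 were higher and 3 lower in TEL-JAK2, with a list median of -0.24. That is 33.3% called lower beside 12.2% of all genes. Cul5, the gene of the scaffold, was not called over all arrays (-0.24 ± 0.24) and differed by -0.87 without ICN1 replicates 1 and 2. The 3 called over all arrays were the E2 enzyme gene Ube2f (-0.50 ± 0.10 SE, log2), the RING subunit gene Rnf7 (-0.41 ± 0.09) and Eloc, the gene of elongin C (-0.49 ± 0.14). Ube2f lost its call when only probe sets with a plain _at name were used (-0.06, limma adjusted p = 0.806). Of its 6 probe sets 4 were called lower and 2 were not (-0.15 and -0.06). Without ICN1 replicates 1 and 2 the differences were -0.41 for Ube2f, -0.38 for Rnf7 and -0.49 for Eloc. Rnf7 lost its call without ICN1 replicate 2 (limma adjusted p = 0.0644). Eloc lost it without any 1 of the ICN1 arrays or TEL-JAK2 replicates 1, 3 or 4 (limma adjusted p 0.0697 to 0.101), and with plain _at probe sets (0.0545). Elob, the gene of elongin B, was not called (-0.09 ± 0.08).

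Of 27 other genes with a SOCS box, 4 were higher, 4 lower and 19 not called (median 0.09). That is 29.6% called, near the 24.1% of all genes. Spsb1, which encodes a SOCS-box protein with a SPRY domain, read 7.99, 7.47, 8.74 and 7.70 in TEL-JAK2, against 4.52, 4.91 and 4.59 in ICN1. Its difference of 3.30 ± 0.29 (SE, log2; limma adjusted p = 0.000402) lay in the range of Cish and Socs1, but its further probe sets gave 1.03, 0.61 and 0.36, the last not called. Its relative Spsb4 was lower (-3.44 ± 0.49). The remaining higher genes were Asb13 (1.17 ± 0.14), Rab40c (0.80 ± 0.12) and Asb18 (0.34 ± 0.10), and the remaining lower genes Asb1 (-1.84 ± 0.22), Asb17 (-0.87 ± 0.13) and Asb2 (-1.20 ± 0.34). Asb18 lost its call without any 1 of the TEL-JAK2 arrays or ICN1 replicates 1 or 3 (limma adjusted p 0.0758 to 0.138), and changed sign with CD3 centring. Its other probe set was not called (0.08 ± 0.11). Asb2 lost its call without TEL-JAK2 replicates 1, 3 or 4 or ICN1 replicates 1 or 2 (limma adjusted p 0.0768 to 0.116). Without ICN1 replicates 1 and 2 the differences were -0.53 for Asb2, 0.37 for Asb18 and 0.66 for Rab40c. Of the 4 Asb1 probe sets 3 were called lower and 1 was not (0.03). Wsb1, the brightest of the list, was not called (0.03 ± 0.14).

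Of 12 inhibitors of cytokine signalling outside the family, 3 were higher, 0 lower and 9 not called, with a list median of 0.35. The share called in either direction was near the 24.1% of all genes, where 11.9% were higher and 12.2% lower. With ICN1 replicates 1 and 2 left out, the differences were 2.44 for Ptpn1, 1.27 for Pias3 and 1.53 for Cblb. Cblb, a ubiquitin ligase gene, was not called over all arrays (1.02). Ptpn1, which encodes a phosphatase that acts on JAK2 and TYK2, read 12.43, 12.60, 12.58 and 13.07 in TEL-JAK2, against 10.02, 10.12 and 10.23 in ICN1. Unlike for Socs1, Socs2 and Socs3, TEL-JAK2 replicate 4 was the highest array here, and the difference was 2.55 ± 0.16 (SE, log2; limma adjusted p = 8.35e-05). Pias3, an inhibitor of STAT3, differed by 1.20 ± 0.17, while its other probe set was not called (0.22 ± 0.12). Ptpn2, a phosphatase gene for JAK1 and JAK3, differed by 0.44 ± 0.11, changed sign with CD3 centring and lost its call without TEL-JAK2 replicates 1, 2 or 3 or ICN1 replicates 1 or 2 (limma adjusted p 0.0581 to 0.0892). Without both of these ICN1 arrays the Ptpn2 difference was 0.23, and its other 3 probe sets were not called (0.24 to 0.72). Ptprc, the gene of CD45, was not called (0.28 ± 0.10). Taking each gene of all these lists once, 28 of 110 were higher and 11 lower, 35.5% called in either direction beside 24.1% of all genes. These counts are not given without ICN1 replicates 1 and 2, since that setting leaves 1 ICN1 array.

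**Figure D4:**
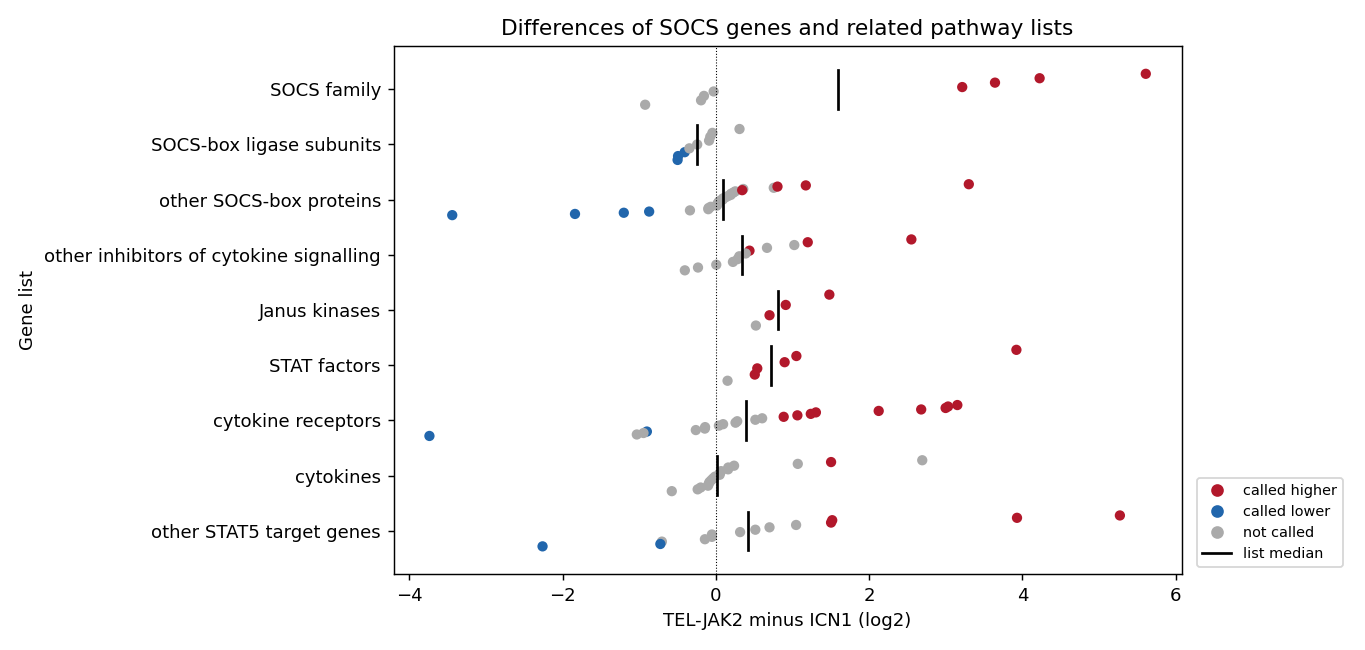
Difference TEL-JAK2 minus ICN1 (log2, horizontal axis) of each gene in the SOCS family and in 8 related lists, with a black line at each list median. Red points were called higher, blue points lower and grey points were not called. The SOCS family splits into 4 genes between 3.21 and 5.61 and 4 genes between -0.92 and -0.03, while its ligase subunits lie near 0.

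The genes whose pattern over the 7 arrays was most like each called SOCS gene were found by the root mean square difference between values centred on each gene's own mean. Since the groups are far apart, this measure mainly reflects the size of the group difference and the order of arrays. Closest to Cish were Prkca (0.20), Ccdc162 (0.25) and Hsd11b1 (0.25), where the values in brackets are root mean square differences in log2. Closest to Socs1 were Lypd6b (0.13), Gprin3 (0.20) and Ltb (0.25). Closest to Socs2 were Sema4a (0.38), Tmem108 (0.41) and Bcl2 (0.42), and closest to Socs3 were Crispld2 (0.26), Bhlhe40 (0.26) and Map3k8 (0.34). The differences of these 12 genes between TEL-JAK2 and ICN1 ranged from 2.94 to 5.58 log2.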

How the data were processed

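RNA of 7 leukemic cell suspensions, 4 TEL-JAK2 and 3 ICN1, was measured on 1 array each. The authors deposited log2 expression values per probe set, made with RMA per the submitters' processing notes. No source used here gives its version. Because RMA brings all arrays to one common distribution, a change in overall RNA content cannot be seen, and the number of arrays limits the precision. Detection calls and batches were not used here, and no column of values was left unused.

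Of 45037 probe sets, 34945 had 1 gene symbol in the platform annotation, 932 several and 9160 none, and 34741 matched a RefSeq gene ID (0 symbols updated). For genes with several probe sets, the brightest on average was used (18193 genes). TEL-JAK2 minus ICN1 was tested two-sided by lmFit and eBayes of limma 3.58.1 (R 4.3.3) with Benjamini-Hochberg adjustment over all genes, and again over all probe sets, at 0.05. Folds are 2 to the power of the difference. The script was tested on simulated data. Promoters came from RefSeq (GRCm38.p6). Figures were drawn with matplotlib 3.10.9.

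The members and lists were chosen with earlier results of these data known. Replicate numbers follow accession order and only name an array. Named were all members with every probe set, all Janus kinases and STATs, up to 3 called genes per list with the smallest adjusted p, the called gene with the largest, the uncalled gene with the highest mean, members of counts of 5 or fewer, the brightest marker of each list, and the 3 genes most like each member whose SD over the arrays was at least 1. Alternatives were the mean of probe sets, probe sets tested singly, suffix filters, a filter on dim genes, 4 other scalings (among them centring on Cd3d, Cd3e, Cd3g and Cd247), variance trend, array weights, a 1.5-fold null, unequal variances, a threshold of 0.01 and arrays left out.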

Additional observations from a re-analysis of the deposited data

Results flagged for a closer look

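In 4 of 75 values tested among the TEL-JAK2 arrays, 1 array stood apart from the other 3 by Dixon's ratio of gap to range (critical value 0.829), and chance gives about 1 in 20. The ratio was 0.857 for the Socs4 probe set 1421275_s_at, where TEL-JAK2 replicate 4 read 5.24. It was 0.981 for Rnf7, a subunit gene of the SOCS-box ligase, where replicate 1 read 10.21, and 0.850 for Tyk2, where replicate 2 read 8.80. It was 0.908 for Ltb, where replicate 4 read 12.06. The ICN1 group of 3 arrays was not tested. None of the gene-level readings of the 8 SOCS genes passed the limit.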

How the results depend on the processing

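Cish, Socs1, Socs2 and Socs3 were called higher in TEL-JAK2 under every alternative that could be run for them (22 each, 21 for Socs1, which has no plain _at probe set). Among these is the setting with 1 ICN1 array, which holds no ICN1 spread. Their differences ranged from 2.59 to 3.33, 3.02 to 3.81, 3.06 to 6.08 and 3.60 to 4.57 log2, and their largest adjusted p was 0.0461, for Socs2 with unequal variances. The low Socs2 value came from averaging its 6 probe sets. No paired analysis was possible because the labels give the groups no shared replicate numbers. With the 7 arrays left out in turn, 4 SOCS genes and 10 SOCS probe sets were called higher each time, 0 to 1 gene and 0 to 1 probe set lower, and 23 to 26 pathway genes higher and 7 to 11 lower. All genes gave 1524 to 2170 higher and 1685 to 2066 lower.

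Socs5 was called lower (1 gene and 1 probe set) without dim genes, where fewer genes were tested (adjusted p = 0.0438), with array weights (-1.09, adjusted p = 0.0353) and without ICN1 replicate 3. Under CD3 centring the median gene stood at -0.58, with all differences shifted by -0.62. It left 4 SOCS genes higher and 4 lower, 12 SOCS probe sets lower, 17 pathway genes higher and 49 lower, and over all genes 787 higher and 11410 lower. Calls were then 6.45% higher, against 49.4% otherwise. Plain _at probe sets alone gave 6 SOCS probe sets higher and 7 pathway genes lower. A null of 1.5-fold gave 515 genes higher and 672 lower, with 12 and 3 of the pathway genes. Unequal variances gave 744 and 888, with 15 and 3. A threshold of 0.01 gave 987 and 1204, with 5 pathway genes lower. Without ICN1 replicates 1 and 2, where the lone ICN1 array is assumed to vary like the TEL-JAK2 arrays, 1039 genes were higher and 7 pathway genes lower.

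Signs changed with CD3 centring for Wsb1 (-0.59), Asb18 (-0.28), Ptpn2 (-0.18), Ptprc (-0.34), Jak2 (-0.10), Stat5a (-0.082), Stat5b (-0.47), Stat6 (-0.11), Il2ra (-0.11), Gh (-0.57, and -0.13 with the mean of probe sets) and the probe sets Socs2 1441476_at (-0.55), Socs4 1421275_s_at (-0.55), Socs6 1452764_at (-0.57), Socs7 1434834_at (-0.38) and Socs7 1438492_at (-0.57). Socs4 read 0.012 with array weights, 0.015 and 0.037 without TEL-JAK2 replicates 2 and 4 and 0.029 without ICN1 replicate 3. With 1 array left out in turn, signs varied for Socs4 (-0.11 to 0.037), Socs7 (-0.31 to 0.061), Wsb1 (-0.082 to 0.14), Stat5b (-0.0011 to 0.39) and the Socs6 probe set (-0.11 to 0.19). Without ICN1 replicates 1 and 2, signs changed for Wsb1 (-0.19), Stat5b (-0.33), Il2ra (-0.50) and the probe sets Socs2 1441476_at (-0.045), Socs4 1421275_s_at (-0.10) and Socs6 1452764_at (-0.13). The sign changes with CD3 centring follow from its shift of every difference by -0.62. The cause of the other changes was not tested.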
